A study of Mus musculus with 36 samples.

Results

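Inflammasomes are cytosolic platforms that sense danger and activate inflammatory caspases, and pyroptosis is the lytic cell death that these caspases trigger. NLRP3 and AIM2 are sensors, ASC (*Pycard*) is the adaptor that links them to caspase-1 (*Casp1*), caspase-11 (*Casp4* in the mouse) binds bacterial lipopolysaccharide in the non-canonical pathway, gasdermin D (*Gsdmd*) is cut to form the membrane pore, and IL-18 (*Il18*) is a cytokine matured by caspase-1. These genes are best known in macrophages, where transcription of *Nlrp3* by NFκB is the priming step that precedes assembly. The 7 genes *Nlrp3*, *Aim2*, *Casp1*, *Casp4*, *Gsdmd*, *Pycard* and *Il18* were taken by symbol from the 53421 genes in the count table, and all 7 were found.

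Levels were measured by poly(A) RNA-seq in a mouse fibroblast-like chondrocyte line that had been conditionally immortalized with interferon-γ and then released from it. Cells were transfected with a non-targeting siRNA pool (NT) or a siRNA pool against *Ift88* (IFT88siRNA), at 50 nM in the labels and at a lower dose in the methods. They were then kept in medium only (0 h), or IL-1β was added at 10 ng/ml and cells were harvested 1, 2, 4, 8 or 24 h later. Each of the 12 conditions had 3 replicates, which gives 36 libraries. Every group comes from a single cell line and both siRNA groups were transfected, so there was no untransfected group, and no time-matched medium control was used here for the later times.

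Total counts on genes were from 19337022 to 38304127 per library, with a median of 21672803.5 in NT and 25873754 in IFT88siRNA. At these depths 3 counts, the limit that a count of 0 allows, correspond to 0.0783 to 0.155 CPM (counts scaled to a common library total), which covers counting error only. *Ift88* was lower in IFT88siRNA at every time, by 1.47 to 2.12 on the log2 scale. The fibroblast markers summed to between 1056 and 1593 TPM (transcript levels scaled by length and library total) per library and the chondrocyte markers to between 19.0 and 68.1. Of the 8 chondrocyte markers, 3 had a median under 10 counts, among them *Acan* with 1 to 16 counts. *Sox9* had 327 to 1665 counts, *Comp* 156 to 782, *Hapln1* 190 to 766 and *Col2a1* 96 to 516. The 10 macrophage and leukocyte markers summed to between 17.0 and 51.4 TPM. Of these, *Tyrobp* was at 0 in all 36 libraries, *Adgre1* in 28 and *Ptprc* in 18, and *Cd14* was the most abundant. *Cd68* (64 to 164 counts) and *Lyz2* (14 to 74) were found in every library. The labels do not say whether replicates were separate cultures, so p-values measure the spread between these libraries only.

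The 7 genes spanned levels from near the detection limit to among the more abundant transcripts. In TPM, which allows for gene length, NT cells at 0 h held *Gsdmd* at 75.6 ± 3.08 (SD, n = 3), *Casp4* at 16.6 ± 2.32, *Il18* at 14.1 ± 2.69, *Aim2* at 3.20 ± 1.17, *Pycard* at 0.592 ± 0.360 and *Nlrp3* at 0.128 ± 0.0843. *Casp1* was listed at 0 in these 3 libraries. The libraries of *Casp4* and *Il18* overlapped at 0 h, and those of *Pycard* and *Nlrp3* did not. At 4 h with IL-1β the TPM of *Casp4* was 191 ± 7.99, above *Gsdmd* at 137 ± 3.23, so the order of these 2 genes at 0 h and at 4 h was opposite, with no overlap between libraries at either time. *Il18* was then at 25.0 ± 1.36, *Aim2* at 7.72 ± 0.914 and *Nlrp3* at 0.963 ± 0.213.

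**Figure D1:**
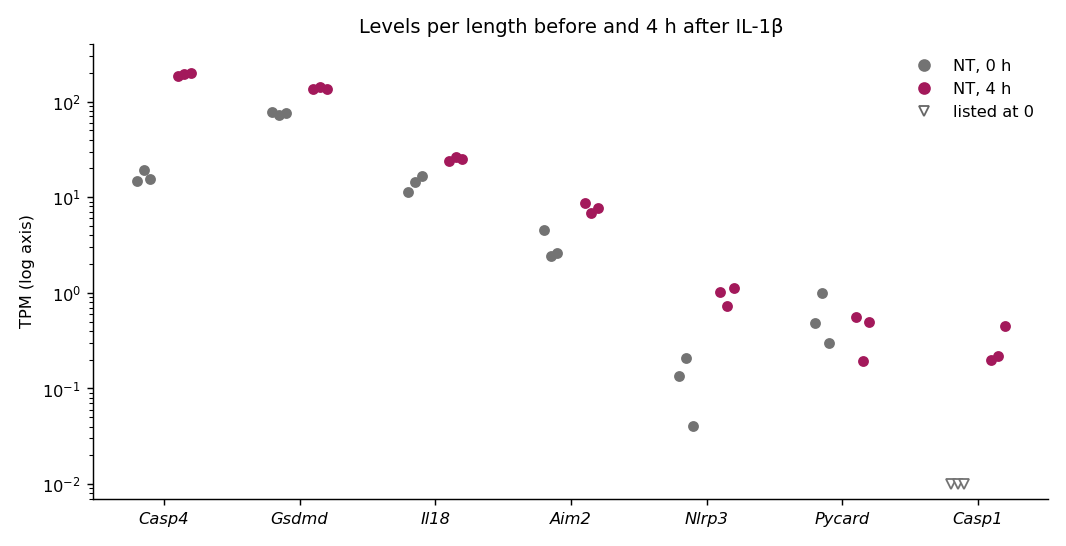
TPM of the 7 genes on a log axis in the 3 NT libraries at 0 h (grey) and the 3 at 4 h with IL-1β (magenta), with open triangles for values listed at 0. Casp4 lies between 14.9 and 19.2 at 0 h and between 183 and 199 at 4 h, above Gsdmd at that time.

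Counts were compared with edgeR's quasi-likelihood test after TMM scaling, and a gene was called where its Benjamini-Hochberg adjusted p over all genes tested was under 0.05 and its fold change over 1.5. In NT cells, 5 of the 7 genes passed the filter on low counts, and all 5 were called changed over the 6 times. One of them, *Nlrp3*, was under the filter's level (0.461 CPM) at 0 h and passed through its libraries with IL-1β, so it had to differ and is left out of the counts that follow unless stated. Over all genes, 50.0% of the 16048 tested were called in NT, and in 23.6% the largest change was an increase. In IFT88siRNA cells the same 5 genes were tested and called, against 48.2% of 16129 genes. The direction was shared: every one of the 5 had its highest mean at 4 h in both siRNA groups. At that time alone, the 4 genes other than *Nlrp3* were higher in NT, where 16.3% of all genes were called higher, and in IFT88siRNA, where 16.0% were. At the other times the shares of all genes called higher were 9.22% in NT and 6.82% in IFT88siRNA after 1 h, 13.0% and 12.4% after 2 h, 11.8% and 10.5% after 8 h, and 6.61% and 6.36% after 24 h. The median log2 change at 4 h was 1.30 over these 4 genes in NT and -0.02 over all genes tested.

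*Casp4* had the largest log2 change with IL-1β of the 5 genes tested. In NT its level was 9.30, 10.6 and 9.58 CPM at 0 h, 34.9, 35.1 and 37.1 at 1 h, and 51.1, 44.7 and 54.0 at 2 h. At 4 h the 3 NT libraries were at 135, 138 and 142 CPM, at 8 h at 74.1, 70.8 and 70.4, and at 24 h at 60.6, 64.0 and 59.6. No library with IL-1β overlapped those at 0 h, and the level at 24 h was still several-fold above the start. Against 0 h the log2 change was 1.86 ± 0.073 (SE) after 1 h, with an adjusted p of 1.88e-16. It was 3.82 ± 0.067 after 4 h and 2.64 ± 0.069 after 24 h, with adjusted p-values of 1.10e-23 and 4.89e-20. *Casp4* rose again between 2 h and 4 h, by a log2 change of 1.48 ± 0.056 (adjusted p = 4.13e-17, with 16.6% of all genes called higher over this step). It fell by 0.95 between 4 h and 8 h (adjusted p = 2.78e-13, with 9.93% of all genes called lower). Of the 5 genes tested in NT it was the 1 gene called at 1 h, where the changes of the other 4 were between 0.21 and 0.57.

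*Casp4* lies next to *Casp1* on chromosome 9, both on the plus strand, with *Casp1* at chr9:5298517-5307265 and *Casp4* at chr9:5308828-5336783 (GRCm38). The promoters of both are printed here. They were chosen because these neighbouring caspase genes had the highest and the lowest mean TPM of the 7 in NT at 4 h. The libraries of *Casp1* then overlapped those of *Pycard*. The promoter of *Nlrp3* was added because it was the 1 gene of the 5 tested that was called different between the siRNA groups over 6 times. The RefSeq table of promoters (GRCm38.p6) had 8 windows for 6 of the 7 genes and was searched over the 250 bases before each start site, on both strands. Capitals mark matches to GGGNNTTTCC, a form of the NFκB element that was chosen after the sequences were seen.
Casp4, chr9:5308599-5308848, plus strand: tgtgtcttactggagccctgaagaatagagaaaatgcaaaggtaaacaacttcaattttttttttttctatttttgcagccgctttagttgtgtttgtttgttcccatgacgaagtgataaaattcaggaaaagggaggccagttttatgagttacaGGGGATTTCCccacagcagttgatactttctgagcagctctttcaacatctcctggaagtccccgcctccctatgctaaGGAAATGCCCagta
Casp1, chr9:5298267-5298516, plus strand: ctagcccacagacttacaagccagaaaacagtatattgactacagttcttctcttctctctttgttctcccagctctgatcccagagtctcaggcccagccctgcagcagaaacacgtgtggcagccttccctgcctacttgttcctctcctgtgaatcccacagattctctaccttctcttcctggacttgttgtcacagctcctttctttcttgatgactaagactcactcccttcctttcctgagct
Nlrp3, chr11:59541319-59541568, plus strand: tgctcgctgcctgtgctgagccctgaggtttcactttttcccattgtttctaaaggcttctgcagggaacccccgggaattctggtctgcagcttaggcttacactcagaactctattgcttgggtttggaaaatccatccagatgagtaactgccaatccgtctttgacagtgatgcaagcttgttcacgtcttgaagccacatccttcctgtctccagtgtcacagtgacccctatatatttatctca
The *Casp4* window held 2 matches, GGGGATTTCC beginning 93 bases before the start site and GGAAATGCCC, on the other strand, beginning 14 bases before it. The second *Casp4* window, whose start site lies downstream of the first, overlapped it and held the same 2 matches. None of the windows of *Casp1*, *Nlrp3* (2 windows), *Aim2*, *Pycard* or *Il18* held this motif, and 1.41% of all 32851 windows did. The looser GGGNNNNNCC, which overlaps it, was found in 45.8% of all windows, and among these genes in *Casp4*, in *Casp1* and in the window of *Nlrp3* shown. No window of these 6 genes held an interferon-stimulated response element (GAAANNGAAA, 2.98% of all windows), a GAS element (TTCNNNGAA, 7.02%) or an AP-1 site (TGANTCA, 6.75%). A match describes the letters of a window and not binding.

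*Gsdmd*, the substrate of both caspases, was high at rest and rose moderately. Its NT libraries were at 74.4, 66.6 and 71.0 CPM at 0 h, 151, 155 and 155 at 4 h, and 80.2, 81.4 and 83.3 at 24 h. The libraries at 4 h lay above all others of NT. The log2 change was 0.21 ± 0.063 at 1 h and 0.35 ± 0.063 at 2 h, both under the fold of 1.5 (adjusted p = 0.00742 and 3.83e-05), and *Gsdmd* was called at 4 h (1.13 ± 0.062, adjusted p = 4.75e-14) and at 8 h (0.70 ± 0.062, adjusted p = 8.77e-10). In IFT88siRNA the corresponding changes were 0.97 ± 0.066 at 4 h, which was called, and 0.55 ± 0.066 at 8 h, which was under the fold threshold.

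*Il18* was the 1 gene of the 5 whose 3 NT libraries at 24 h all lay below those at 0 h. In NT it was at 4.73, 5.24 and 6.34 CPM at 0 h, 10.3, 11.4 and 10.2 at 4 h, and 3.37, 3.94 and 4.10 at 24 h. The rise at 4 h was 0.98 ± 0.108 (adjusted p = 2.21e-08), and the 24 h level differed from 0 h by -0.51 ± 0.120 (adjusted p = 0.00114), less than the fold of 1.5. From 8 h to 24 h alone *Il18* fell by 1.06 on the log2 scale (adjusted p = 3.60e-08, with 10.2% of all genes called lower over this step). In IFT88siRNA cells *Il18* was at 5.76, 6.19 and 6.35 CPM at 0 h and at 3.29, 4.13 and 4.33 at 24 h, and this fall of 0.63 was called (adjusted p = 1.09e-04). Over all genes, 7.87% were called lower at 24 h in IFT88siRNA and 9.71% in NT. Without replicate 1 at 24 h the same change was -0.53 and under the fold threshold, and in NT the change at 24 h was -0.60 and called without replicate 1 at 0 h, so the calls of the 2 groups at 24 h rested on the threshold.

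The sensors were at lower levels. *Aim2*, which binds cytosolic DNA, was at 1.56, 1.57 and 1.46 CPM in NT at 0 h and at 4.13, 4.77 and 3.67 at 4 h, with no overlap, a log2 change of 1.46 ± 0.206 (adjusted p = 1.20e-06). At 1 h its NT libraries were at 2.67, 1.22 and 2.66 CPM and overlapped 0 h, at 8 h the change was 0.59 ± 0.221 (adjusted p = 0.0292) and at 24 h 0.24 ± 0.224 (adjusted p = 0.400). *Aim2* was also called at 1 h when NT replicate 2 at 1 h was left out, with a log2 change of 0.80. The call at 8 h was lost on leaving out any of 5 of the 18 NT libraries (all 3 at 0 h and replicates 1 and 3 at 8 h), with changes over all 18 from 0.48 to 0.68. In IFT88siRNA the change at 4 h was 1.18 ± 0.189 (adjusted p = 8.12e-06). On the log2(TPM + 1) scale with limma the call over time was lost in both groups, with adjusted p-values of 0.0518 in NT and 0.112 in IFT88siRNA.

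*Nlrp3* had the second largest fold change, from very few reads. Its NT libraries held 9, 11 and 2 counts at 0 h and 48, 41 and 56 at 4 h, or 0.380, 0.454 and 0.0887 CPM against 2.72, 1.88 and 2.98. Since the gene entered the test through its libraries with IL-1β, its being called over time is given as a description. In NT the log2 change was 0.57 ± 0.488 after 1 h and was not called (adjusted p = 0.343). It was 2.18 ± 0.386 after 2 h and 2.99 ± 0.354 after 4 h, with adjusted p-values of 3.07e-05 and 7.69e-08. After 8 h it was 1.61 ± 0.410 and after 24 h 1.15 ± 0.425, with adjusted p-values of 0.00185 and 0.0304. The call at 24 h was lost without NT replicate 3 at 0 h, or without replicate 1 or 2 at 24 h (log2 changes over the 18 libraries left out from 0.74 to 1.54). In IFT88siRNA it was called at 2 h (1.51 ± 0.408, adjusted p = 0.00288) and 4 h (2.42 ± 0.368, adjusted p = 3.87e-06), and was at 0.50 ± 0.460 at 8 h (adjusted p = 0.400).

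The adaptor and caspase-1 were close to the limit of detection in all conditions. *Pycard* had 1 to 11 counts per library and 183 in all, and 485 of its exonic bases overlap the opposite-strand transcript *Gm45205*, which had at most 5 counts. The counting did not use strand, so reads in that stretch cannot be assigned. *Casp1* had 0 to 8 counts, 62 in all, and 0 in 15 of 36 libraries. In NT *Casp1* had 0 counts in each library at 0 h and 3, 4 and 7 counts at 4 h. In IFT88siRNA it had 3, 0 and 4 counts at 0 h and 2, 7 and 8 at 4 h, which overlapped. Neither gene passed the filter on low counts in any comparison. In a fit with no such filter *Casp1* was called over time in both groups, from these few counts. The joint tests gave an adjusted p of 8.35e-04 in NT and 0.00422 in IFT88siRNA. The largest change from 0 h was an increase at 4 h in NT (adjusted p = 6.29e-04). In IFT88siRNA it was a log2 change of -2.25 ± 1.279 at 1 h, which was not called (adjusted p = 0.255). The change at 4 h in IFT88siRNA was not called either (adjusted p = 0.0974). From 2 h to 4 h *Casp1* rose by 3.51 ± 1.154 in NT and by 2.985 ± 0.963 in IFT88siRNA, and both steps were called. *Pycard* was called over time in neither group (adjusted p = 0.929 and 0.177), although its change at 24 h in IFT88siRNA alone, -1.82 ± 0.607, was called (adjusted p = 0.0168).

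**Figure D2:**
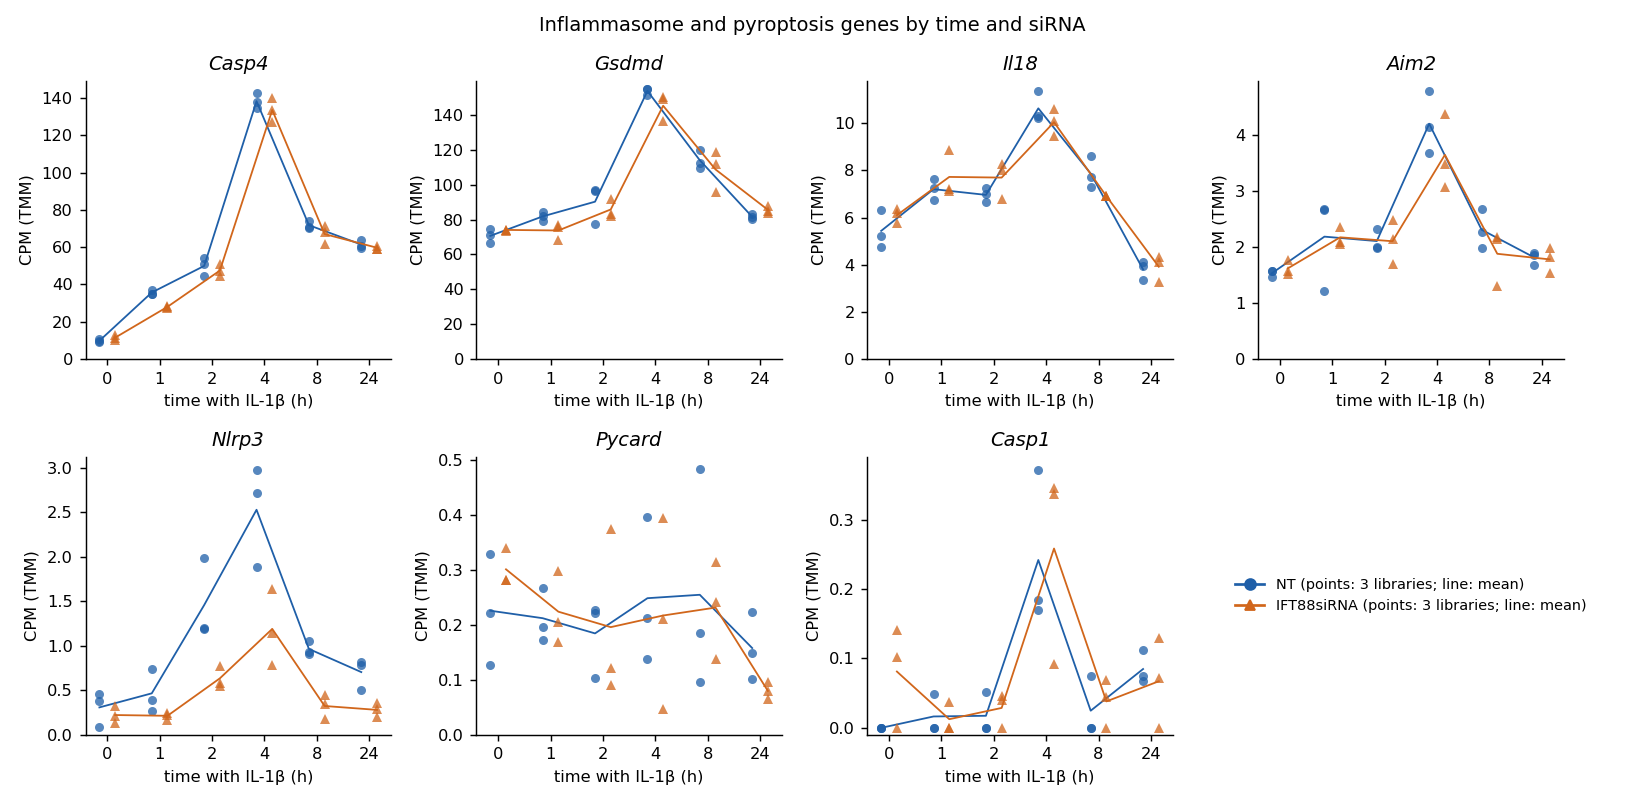
CPM after TMM scaling of each of the 7 genes against time with IL-1β (h, times evenly spaced), with a point for each of the 36 libraries and a line through the means of NT (blue circles) and IFT88siRNA (orange triangles). Casp4, Gsdmd, Il18, Aim2 and Nlrp3 are highest at 4 h in both groups, and the Nlrp3 points of IFT88siRNA lie below those of NT from 1 h on.

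**Figure D3:**
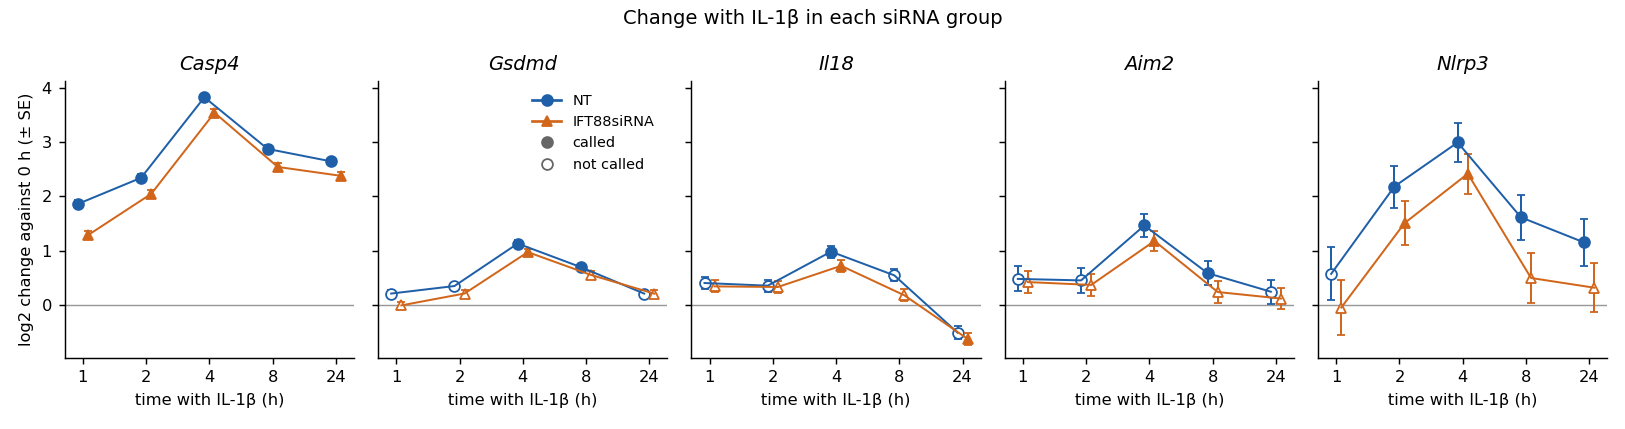
Log2 change against 0 h with its SE at the 5 times with IL-1β in NT and IFT88siRNA for the 5 genes that were tested, with filled symbols where a change was called. Casp4 is filled at all 5 times in both groups, and Il18 ends below 0 at 24 h in both.

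Between the siRNA groups, *Nlrp3* was the 1 gene of the 5 tested that was called different over the 6 times, against 5.19% of 16710 genes (3.81% with the largest difference a lower level in IFT88siRNA). It was lower with *Ift88* siRNA at every time with IL-1β. At 1 h its NT libraries were at 0.267, 0.391 and 0.738 CPM and its IFT88siRNA libraries at 0.168, 0.224 and 0.247. At 2 h they were at 1.98, 1.18 and 1.20 against 0.585, 0.550 and 0.767, and at 4 h at 2.72, 1.88 and 2.98 against 0.788, 1.14 and 1.64. At 8 h they were at 0.906, 1.06 and 0.927 against 0.451, 0.346 and 0.172, and at 24 h at 0.785, 0.818 and 0.508 against 0.356, 0.288 and 0.194. In CPM the groups did not overlap at any of these 5 times, and the ratio of means was from 0.335 to 0.470. How often the siRNA groups are apart in this way over all genes was not counted. In TPM they overlapped at 1 h, with 0.1695, 0.2784 and 0.6348 in NT and 0.06736, 0.2387 and 0.1298 in IFT88siRNA. They also overlapped in TPM at 2 h, with 1.272, 0.4411 and 0.4615 in NT and 0.2157, 0.2785 and 0.6035 in IFT88siRNA. At 0 h they overlapped, with 0.380, 0.454 and 0.0887 CPM in NT and 0.136, 0.211 and 0.318 in IFT88siRNA, a ratio of 0.721. The raw counts went the same way at 4 h and 8 h, although the IFT88siRNA libraries were the deeper in median. There were 145 counts in the 3 NT libraries at 4 h and 79 in IFT88siRNA, and 68 against 25 at 8 h. At 1 h the raw counts overlapped, with 5, 9 and 15 in NT and 4, 6 and 6 in IFT88siRNA.

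By edgeR, the *Nlrp3* difference in IFT88siRNA was -1.17 ± 0.297 on the log2 scale at 2 h and was not called (adjusted p = 0.0636), where 0.462% of all genes were called lower. It was -1.06 ± 0.267 after 4 h with an adjusted p of 0.0351, -1.62 ± 0.349 after 8 h with 0.0283, and -1.33 ± 0.343 after 24 h with 0.0243. Over all genes, 0.399%, 0.613% and 0.598% were called lower at these times. At 2 h and 4 h all 6 libraries reached the filter's level, but at 8 h and 24 h only the 3 of NT and 1 of 3 in IFT88siRNA did, so at these later times the gene was tested because NT was high and the calls are a description. DESeq2 gave the same sign at all 4 times, from -1.08 to -1.62 with unadjusted p from 0.0013 to 0.00779, and no adjusted p. Counts at 0 h and 1 h were too few for the test at these single times. In the fit of all 36 libraries the joint test over 6 times gave an adjusted p of 2.36e-05, with the largest difference, -1.60, at 8 h. With limma on log2(TPM + 1) this joint test was not passed (adjusted p = 0.0764). The calls at single times rested on few reads: leaving out 1 of the 6 libraries ended the call for 3 of them at 4 h (NT replicates 1 and 3, IFT88siRNA replicate 1), for 4 at 8 h (the 3 NT replicates and IFT88siRNA replicate 2) and for 4 at 24 h (NT replicates 1 and 2, IFT88siRNA replicates 2 and 3). The difference was negative in all of these fits, from -0.84 to -1.88, and the highest adjusted p was 0.211. Whether the siRNA changed the response to IL-1β or the level of *Nlrp3* as such could not be told apart: the test of a different response gave an adjusted p of 0.862 over time, with differences of -0.57 ± 0.602 at 4 h and -1.12 ± 0.659 at 8 h.

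The other tested genes differed little between the siRNA groups. *Casp4* at 1 h was at 34.9, 35.1 and 37.1 CPM in NT and 27.5, 28.4 and 28.1 in IFT88siRNA, with no overlap, a difference of -0.36 ± 0.055 (adjusted p = 3.65e-04) that was under the fold of 1.5 (2.47% of all genes were called lower at 1 h). From 2 h to 8 h its log2 difference was between -0.12 and -0.05, with SEs of at most 0.076, and at 24 h its ratio of means was 0.972. *Gsdmd* differed by -0.16 ± 0.049 at 1 h (adjusted p = 0.0349), also under the fold threshold, and by -0.09 to 0.07 at the other times. In CPM the *Gsdmd* libraries of the siRNA groups did not overlap at 1 h and 4 h, where NT was higher. They did not overlap at 24 h either, where IFT88siRNA was higher. Libraries of *Il18* at 8 h and of the untested *Pycard* at 24 h were also apart, with NT higher. How often this occurs over all genes was not counted. *Il18* differed by -0.21 ± 0.102 to 0.17 ± 0.114 and *Aim2* by -0.29 ± 0.223 to 0.07 ± 0.185, with adjusted p of 0.272 or more for *Il18* and 0.487 or more for *Aim2*. The larger SEs of *Aim2* leave room for a difference that these counts could not show.

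**Figure D4:**
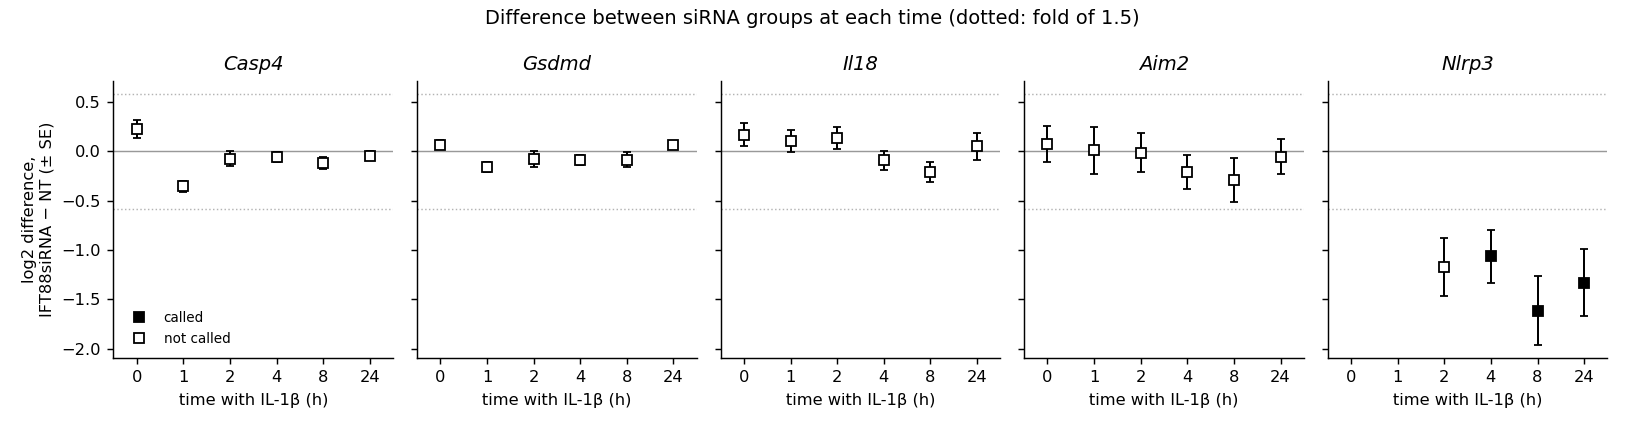
Log2 difference between IFT88siRNA and NT with its SE at each time for the 5 genes, filled where called, with dotted lines at a fold of 1.5. Nlrp3 lies between -1.06 and -1.62 at the 4 times it could be tested, and the other genes lie within the dotted lines.

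The response to IL-1β itself was compared in the fit of all 36 libraries. Of the 5 genes tested, 0 were called with a different response over time by edgeR (1 had an unadjusted p under 0.05) and 0 of the 4 to which DESeq2 gave an adjusted p, against 1.20% of 16710 genes. The share of all genes with an unadjusted p under 0.05 was not counted, and 924 had an adjusted p under 0.05 by edgeR. *Casp4* came nearest. Its rise at 1 h was smaller with *Ift88* siRNA, by a log2 difference of -0.57 ± 0.109 (adjusted p = 0.00154, and 0.0138 over all times), which stopped just short of the fold of 1.5. Over all genes, 0.491% were called with a lower response at 1 h. This combined a 0 h level that was 0.23 ± 0.086 higher in IFT88siRNA (adjusted p = 0.0813) with a 1 h level that was lower. Without replicate 2 of every condition the difference at 1 h was -0.72 and called, and without another replicate number it was as small as -0.45 (highest adjusted p = 0.246).

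Genes of the same pathways were described by lists. At 4 h in NT, 4 of the 5 tested other sensors were higher, 0 lower, with a median log2 change of 1.42 (13 in the count table). These were the nucleic acid sensors *Zbp1* (3.52 ± 0.064) and *Ifi204* (2.21 ± 0.052) and the NAIPs *Naip6* (1.42 ± 0.260) and *Naip2* (1.03 ± 0.064), which recognize bacterial proteins and whose reads may be shared with near-identical paralogs. The canonical sensors *Nlrp1a*, *Nlrp1b*, *Nlrc4* and *Nlrp6* had at most 1, 2, 5 and 13 counts in any library. Of the 11 tested triggers and regulators, 6 were higher at 4 h (median of the list 1.02). Among these, the guanylate-binding proteins, which open bacterial vacuoles and expose lipopolysaccharide to caspase-11, changed most: *Gbp5* by 6.42 ± 0.096, *Gbp2* by 4.94 ± 0.063, *Gbp7* by 3.59 ± 0.072 and *Gbp3* by 3.06 ± 0.070, with *Gm12250* at 4.37 ± 0.121. *Nfe2l2*, which encodes the antioxidant regulator NRF2, rose by 1.02 ± 0.044. Over time *Txnip* and *P2rx7*, the receptor for extracellular ATP that activates NLRP3, were called lower, with largest changes of -1.23 and -0.66.

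Of the 9 other caspases and caspase-8 partners, 5 were higher and 1 lower at 4 h in NT (median 0.65). They included *Cflar*, the inhibitor of caspase-8, at 1.19 ± 0.054, *Casp12* at 0.89 ± 0.065, *Casp8* at 0.65 ± 0.054 and *Casp2* at 0.65 ± 0.059, with *Casp9* at -0.62 ± 0.074. Of the gasdermins other than *Gsdmd*, *Gsdme* had 171 to 377 counts and a change of -0.23 ± 0.086 at 4 h that was not called, and no other had more than 6 counts. *Ninj1*, which ruptures the membrane after pore formation, had 92.1 to 193 TPM and was called higher over time, by 1.03 at most. Of the necroptosis genes *Mlkl*, the pore former, rose by 1.91 ± 0.044 and *Ripk1* by 0.63 ± 0.042 at 4 h, and *Ripk3* was at -0.01 ± 0.060.

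Of the cytokine list 4 genes were tested at 4 h in NT, and the 2 that were above the filter's level at 0 h were both higher. *Il18bp*, the soluble antagonist of IL-18, rose by 2.35 ± 0.123 and *Il18rap*, a chain of the IL-18 receptor, by 3.51 ± 0.141. *Il33* (2.21 ± 0.271) and *Il1a* (3.02 ± 0.574, from at most 19 counts) were under that level at 0 h and so were tested only because their libraries with IL-1β were higher. *Il18r1*, also of the IL-18 receptor, had 0 counts in 10 libraries and at most 15 in any, and was not tested in NT. *Il1b*, another substrate of caspase-1, was at 0 in 24 libraries and had at most 2 counts. All 12 interferon-response genes (median 2.42) and all 8 NFκB feedback genes (median 2.58) were higher at 4 h. Of the macrophage markers 3 of 5 tested were called higher at 4 h. *Cd14* rose by 1.94 ± 0.112, while *Csf1r*, with 0 to 14 counts per library, and *Aif1* were under the filter's level at 0 h and passed only through libraries with IL-1β, and *Tyrobp* stayed at 0. Their part in the results above was not tested.

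Between the siRNA groups over 6 times, the largest difference of each called gene of the pathway lists was a lower level in IFT88siRNA. The direction was not the same at every time for *Bcl3*, whose mean at 4 h was 67.2 CPM in IFT88siRNA and 60.9 in NT. *Gbp5* differed by -0.73 at most (adjusted p = 8.35e-08), *Il18rap* by -1.09 (adjusted p = 1.02e-08), *Il1a* by -2.07 (adjusted p = 0.0240), *Tnfaip3* by -0.62 (adjusted p = 2.51e-15) and *Bcl3* by -0.67 (adjusted p = 6.31e-05). That was 1 of 11 tested triggers and regulators, 2 of 5 of the cytokine list (*Il1a* being near the detection limit, and not called by DESeq2) and 2 of 8 of the NFκB feedback list, against 5.19% of all genes. By edgeR it was 0 of the 5 other sensors, of which 2 had an unadjusted p under 0.05, and 0 of the 9 other caspases, of which 7 had. It was also 0 of 2 of the gasdermin list (1 with an unadjusted p under 0.05), 0 of 3 necroptosis genes (0) and 0 of 12 interferon-response genes (8), and DESeq2 called 0 in each of these lists. The share of all genes with an unadjusted p under 0.05 was not counted, and 5314 of 16710 had an adjusted p under 0.05 by edgeR. Of the macrophage markers *Csf1r* was lower (-1.62) and *Aif1* higher (1.74) by edgeR, both from few counts, and DESeq2 called neither. Mean *Il1a* at 1 h was 0.130 CPM in NT against 0.0277 with *Ift88* siRNA, at or under the detection limit. Its highest means, both at 4 h, were 0.735 CPM in NT against 0.473 with *Ift88* siRNA. For *Csf1r* the highest means were 0.633 CPM in NT (at 4 h) against 0.316 with *Ift88* siRNA (at 8 h). The calls of *Il1a* and *Csf1r* are therefore given as a description.

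**Figure D5:**
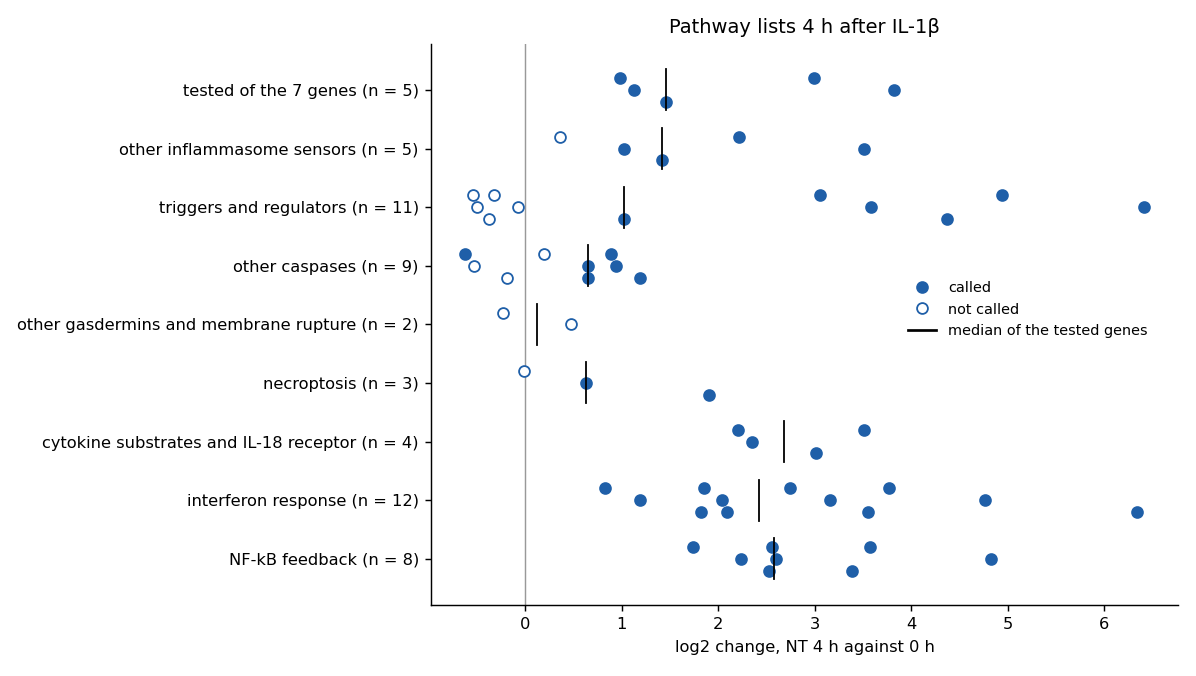
Log2 change of each tested gene of the pathway lists in NT at 4 h against 0 h, filled where called, with a bar at the median of each list. The interferon-response and NFκB feedback genes all lie above 0, and of the 11 triggers and regulators 5 lie below 0 and 6, among them the guanylate-binding proteins, lie above it.

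Across the 36 libraries, which share the time course, the genes with the most similar log2 CPM were named by Pearson's r among about 12076 genes with a mean of 50 or more counts. *Casp4* was nearest to *Plscr2* (r = 0.985), *Rab32* (0.985) and *Plscr1* (0.977), and *Gsdmd* to *Helz2* (0.984), *Daxx* (0.976) and *Cmpk2* (0.973). *Il18* was nearest to *Glis1* (0.946), *Plscr3* (0.944) and *Itga2* (0.934). The values were lower for the genes with few counts, *Nlrp3* with *Fam102b* (0.873), *Fam91a1* (0.867) and *Myo10* (0.864) and *Aim2* with *Stk38l* (0.852), *Zcchc6* (0.850) and *Fmnl2* (0.848). Among the 10 pairs of the 5 tested genes, r was highest for *Casp4* with *Gsdmd* (0.834) and lowest for *Casp4* with *Il18* (0.368).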

How the data were processed

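Poly(A) RNA was sequenced by the authors, and reads were aligned with HISAT2 2.1.0 to GRCm38. Gene counts, deposited as whole numbers, were made by the authors with featureCounts (Subread 1.6.3) without strand, so opposite-strand overlaps cannot be separated. TPM values were estimated by the authors with Salmon 0.9.1 and deposited, and they are used for levels between genes. Replicate libraries differed by more than sampling noise (chi-square per degree of freedom 1.65 to 10.0), and each was counted once. Changes over time were fitted within each siRNA group, differences at a time in the 6 libraries of that time, and joint tests in all 36, with edgeR 4.0.16 (R 4.3.3). The steps were TMM scaling, edgeR's filter on low counts, the quasi-likelihood test and Benjamini-Hochberg adjustment over all genes tested. A joint test is given by its largest change at any time, and CPM of the fit with 36 libraries is printed. DESeq2 1.42.0 and limma 3.58.1 on log2(TPM + 1) or log2(TPM + 0.1), with TPM of at least 1 in 3 libraries or no filter, were alternatives, as were other size factors, no filter on counts, no fold threshold, a replicate block and leaving out libraries. The steps were tested on simulated data. The 7 genes, the pathway and marker lists and the motifs were chosen with earlier results of these data known. Named genes were the 7, *Ift88*, list genes called over time in NT or between siRNA groups, and the 3 genes most correlated with each tested gene over 36 libraries (log2 CPM, prior count 2). Other genes are named as examples from their list, such as its abundant, scarce or absent members, and were picked after their values were seen.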

Additional observations from a re-analysis of the deposited data

Results flagged for a closer look

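The response of *Casp4* to IL-1β at 1 h was flagged because it differed between the siRNA groups by an interaction test. Its log2 change at 1 h was lower in IFT88siRNA than in NT by a log2 difference of -0.57 ± 0.109 (edgeR, adjusted p = 0.00154), and this was also the largest difference of the joint test over all times (-0.57, adjusted p = 0.0138). The 3 IFT88siRNA libraries at 1 h all lay below the 3 of NT. The fold was under 1.5, so the gene was not called. Groups of 3 libraries are too small for the test of single outlying samples.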

How the results depend on the processing

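The count of *Casp4*, *Gsdmd*, *Il18*, *Aim2* and *Nlrp3* called over time stayed at 5 in both siRNA groups with DESeq2, other size factors, no filter on low counts, the replicate block and each library left out. With limma on TPM it was 4 in NT (all but *Aim2*) and 3 in IFT88siRNA (*Casp4*, *Gsdmd* and *Il18*) under log2(TPM + 1), log2(TPM + 0.1) and log2(TPM + 1) with no filter. Under these 3 settings the change of *Il18* over time in IFT88siRNA was reversed, at -0.70, -0.75 and -0.70, because its largest change was then at 24 h. *Nlrp3*, called between the siRNA groups over 6 times with counts, was not called in any of them (0 genes, adjusted p = 0.0764, 0.0784 and 0.136), and with no filter on TPM 0 of the 7 genes were called at 4, 8 or 24 h. Over all its alternatives the adjusted p of this joint test was from 1.25e-11 to 0.136. At single times DESeq2 gave *Nlrp3* no adjusted p and the TPM filter left it out, so no count was set beside those of edgeR. With no fold threshold the counts were 2 over 6 times (*Nlrp3* and *Casp4*), 2 at 1 h (*Casp4* and *Gsdmd*) and 1 with a different response (*Casp4*). At 2 h, where edgeR called 0, *Nlrp3* was called with no filter (adjusted p = 0.00446), in the fit of all 36 libraries (0.0226) and with the replicate block (0.0331), 1 gene each. The replicate block changed no other call of these genes. Correlations of the deviations of same-numbered libraries were from -0.133 to 0.223, and in 0 of 16 comparisons were all above 0.1. Whether same-numbered libraries shared a culture or batch is not in the labels and was not tested. Leaving out 1 library or replicate number gave 0 to 1 genes called at each of 2, 4, 8 and 24 h, 0 to 1 with a different response, and 1 over 6 times. Over all genes, the 8017 called over time in NT and 7781 in IFT88siRNA became 14188 and 13875 with no fold threshold. The 868 called between siRNA groups became 5314 with no fold threshold, 420 with log2(TPM + 1), 376 with no filter on TPM and 451 to 877 on leaving out a replicate number (451 without replicate 1). The 201 with a different response became 924 with no fold threshold, 345 with no filter on counts, 128 with no filter on TPM and 62 to 165 on leaving out a replicate number (62 without replicate 1). At single times, 64 to 393 genes were called between the siRNA groups with edgeR, 34 to 217 with DESeq2, 10 to 157 on the 3 TPM scales, 407 to 2979 with no fold threshold and 22 to 583 on leaving out a library. With no filter on counts the 73, 64 and 105 genes at 2, 4 and 8 h became 137, 100 and 245, the 36-library fit gave 142 at 2 h and 231 at 8 h, and the replicate block 115 at 2 h. Except where stated, the cause of these shifts was not tested. Depth limits *Casp1* and *Pycard*, with at most 8 and 11 counts in a library, for which no difference between groups was detectable.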
